A study of Pardosa pseudoannulata with 6 samples.

Results

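Transcripts of sperm, axoneme and cilia proteins were followed in the wolf spider Pardosa pseudoannulata. Members were all genes whose best protein hit in NR or Swissprot carried one of a set of words. The words were axonemal, cilia- and flagella, radial spoke, tektin, outer dense fiber, protamine, spermatogenesis, sperm-associated, testis-specific, enkurin and intraflagellar. Of 75542 genes in the deposited table, 189 matched. The 44 that did not reach 0.5 FPKM (fragments per kilobase of transcript, scaled to library depth, the deposited unit) in at least 3 libraries were dropped, and so were 3 more whose best hit was a Drosophila protein, which left 142 members. Nuclear sperm proteins (7 members) were treated apart from the parts of the axoneme and the cilium.

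There were 3 dsFactin libraries, from spiders injected with double-stranded RNA against F-actin, and 3 dsNC libraries, from spiders injected with negative-control double-stranded RNA. Every spider in both groups had also received cadmium, so no group shows the members without it. Double-stranded RNA of a gene's sequence triggers RNA interference, the breakdown of the matching transcript. The labels call the sampled material an individual, give no sex and do not state that replicates were separate animals. The p-values therefore rest on the spread between libraries, part or all of which may be technical.

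Cilia and sperm tails are built on the axoneme, a cylinder of doublet microtubules. Axonemal dyneins slide the doublets against each other, radial spokes regulate that sliding, and tektins and enkurin lie in or on the doublet wall. Intraflagellar transport carries building material along a growing cilium. In maturing sperm, histones give way to protamines or protamine-like proteins that pack the DNA. In arthropods motile axonemes are known chiefly from sperm, while sensory neurons carry cilia of their own.

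The libraries held 15.8 to 17.9 M fragments (M, 1e6), so that 3 fragments in a transcript of 1000 bases were worth 0.233 to 0.277 FPKM. The dsFactin libraries had 47167 to 55781 genes above 0, against 57714 to 61503 in dsNC, and the part of this difference in the members' values was not tested. Within dsFactin the library with the fewest genes above 0, replicate 3, was the highest for 64 of the 142 members. The labels do not say which actin was targeted. Of 6 actin hits averaging 100 FPKM or more, 3 were lower in each dsFactin library than in any dsNC library, among them actin-87E at 338, 397 and 558 FPKM in dsFactin, against 880, 1119 and 1057 FPKM in dsNC (adjusted p = 0.0675, limma), and 2 were higher. Markers of many organs were found in every library. Summed yolk transcripts (vitellogenins, 22 genes) ran from 14141 to 25289 FPKM in dsFactin and from 9795 to 14030 FPKM in dsNC, and summed germ line transcripts (28 genes) from 330 to 486 FPKM in dsFactin and from 287 to 316 FPKM in dsNC. Both sums were higher in every dsFactin library than in any dsNC library. Lower in every dsFactin library than in any dsNC library were summed egg shell transcripts (13 genes; 179 to 251 FPKM in dsFactin, 266 to 344 FPKM in dsNC), muscle markers (52 genes; 3773 to 4731 FPKM in dsFactin, 7875 to 9532 FPKM in dsNC) and hemocyanins (45 genes; 43749 to 53996 FPKM in dsFactin, 71800 to 88730 FPKM in dsNC). The groups overlapped for neuron markers (43 genes), at 443 to 566 FPKM in dsFactin and 497 to 580 FPKM in dsNC. They also overlapped for silk (38 genes), at 18091 to 25882 FPKM in dsFactin and 17470 to 21148 FPKM in dsNC. Cuticle proteins (181 genes) barely overlapped, at 8609 to 29596 FPKM in dsFactin and 29572 to 34936 FPKM in dsNC. In such mixed material, fewer cells of a type and less RNA per cell cannot be told apart, and the share of any organ in the members' values was not tested.

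Few members changed. In limma, fitted on log2(FPKM + 1) of all 53182 tested genes with a threshold of 0.05 on the adjusted p, 3 of the 142 members passed and all 3 fell in dsFactin; 0 rose. They were a pair of protamine-like transcripts and 1 enkurin transcript. Of all tested genes, 0.496% passed, 0.0771% higher and 0.419% lower in dsFactin (41 and 223 genes, against 67 higher and 176 lower with quantile normalization). Without adjustment, 2 members had a p under 0.05 and were higher (4.53% of all tested genes) and 15 were lower (14.8% of all tested genes). All 3 members that passed had met the 0.5 FPKM floor through the dsNC libraries only, as had 13 of the 142 in all (1 did so through dsFactin only), so they could enter the test only with a low dsFactin group. In all, 5 members were listed at 0 in every dsFactin library and above 0 in every dsNC library, as were 1.79% of all tested genes. The number of members that passed fell to 0 after median-ratio rescaling and with no filter on low values. It was also 0 with the replicate number as a block, and without dsFactin replicate 1, dsFactin replicate 3, dsNC replicate 1 or dsNC replicate 3. With quantile normalization it was 1.

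The members as a list stood lower in dsFactin, with a median close to that of the transcriptome and a larger share of negative differences. Their median log2 difference, dsFactin minus dsNC, was -0.30, against -0.27 over all tested genes. Of the members, 121 were negative (85.2%, against 71.6% of all tested genes) and 21 positive. After median-ratio rescaling both medians were -0.09, and with quantile normalization the members' median was -0.03 and that of all tested genes 0.01. The negative share was then 64.8% of members and 57.5% of all tested genes after rescaling. With quantile normalization it was 53.5% and 48.9%. The dsFactin values were below every dsNC value for 40 members (28.2%; 21.5% of all tested genes) and above every dsNC value for 4 (2.82%; 5.98% of all tested genes). After median-ratio rescaling these counts were 24 (16.9%; 12.9% of all tested genes) and 6 (4.23%; 11.7%).

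**Figure D1:**
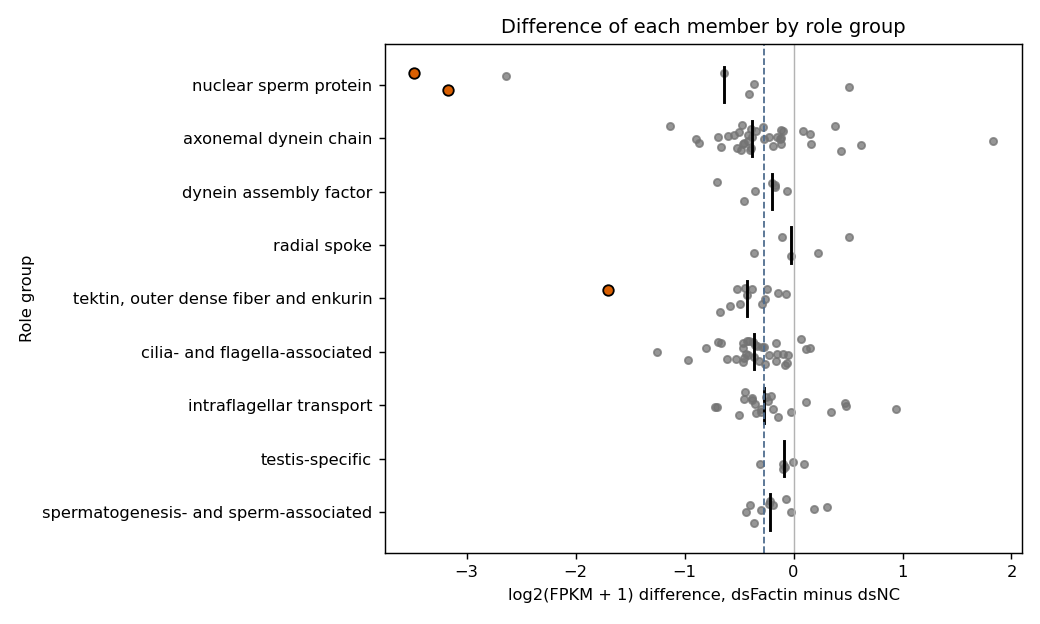
Difference of each member on the log2(FPKM + 1) scale (x axis, dsFactin minus dsNC), by role group (y axis). Each point is 1 member, points in orange passed an adjusted p of 0.05 in limma, black bars mark the median of each group, the dashed line marks the median of all tested genes, -0.27, and the solid grey line marks 0. The 3 orange points, at -3.48, -3.17 and -1.71, stand left of the other members of their groups, the nearest being a protamine-like transcript at -2.64, and the dynein heavy chain hit at 1.83 stands alone on the right.

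Protamine-like transcripts, the nuclear sperm proteins of the list, split into 4 that were found in both groups and 3 that were found in dsNC only. All 7 hit proteins named protamine-like in spiders of the genus Stegodyphus, shared 3 distinct hits between them and matched the Pfam family of linker histones H1 and H5, the DNA-binding proteins from which several sperm nuclear proteins are thought to descend. They were 507 to 716 bases long.

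The most abundant, Cluster-8110.25774, was at 42.3, 108 and 189 FPKM in dsFactin, against 95.4, 191 and 101.4 FPKM in dsNC. The groups overlapped, with dsFactin replicate 1 lowest and with dsFactin replicate 3 and dsNC replicate 2 nearly level at the top (log2 difference -0.36 ± 0.56 SE, adjusted p = 0.744, limma; n = 3 each here and below). Cluster-8110.29079 was at 20.4, 33.6 and 73.8 FPKM in dsFactin and 51.4, 83.7 and 46.4 FPKM in dsNC (-0.64 ± 0.47, adjusted p = 0.50, limma). Cluster-8110.41539 was at 4.2, 7.05 and 18.7 FPKM in dsFactin and 9.27, 14.9 and 10.8 FPKM in dsNC (-0.41 ± 0.49, adjusted p = 0.670, limma). For all 3 of these transcripts, dsFactin replicate 1 was the lowest and dsFactin replicate 3 the highest dsFactin library, dsNC replicate 2 was the highest dsNC library, and the groups overlapped. Cluster-8110.3805 was at 2.81, 6.53 and 6.88 FPKM in dsFactin and 3.52, 2.56 and 3.87 FPKM in dsNC (0.51 ± 0.33, adjusted p = 0.443, limma), the only positive difference among the 7.

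The transcripts found in dsNC only were present there at moderate levels. Cluster-8110.14737 was listed at 0 FPKM in all 3 dsFactin libraries, against 14.3, 4.61 and 15.3 FPKM in dsNC (-3.48 ± 0.43, adjusted p = 0.0412, limma). Cluster-8110.48079 was also listed at 0 FPKM in all 3 dsFactin libraries, against 14.8, 5.07 and 6.54 FPKM in dsNC (-3.17 ± 0.38, adjusted p = 0.0403, limma). Both fell, with no overlap between groups, and each shares its protein hit with the abundant Cluster-8110.25774. Cluster-8110.14737 passed in 9 of 18 alternatives and Cluster-8110.48079 in 9 of 17, each with an adjusted p of 0.0160 to 0.216 over them. Cluster-8110.6410 was listed at 0 FPKM in all 3 dsFactin libraries as well, against 10.2, 0.950 and 10.0 FPKM in dsNC, and did not pass (-2.64 ± 0.69, adjusted p = 0.123, limma). It passed only without dsNC replicate 2, its lowest dsNC library, at an adjusted p of 0.0345 (0.0345 to 0.308 over its alternatives). These differences depend on the pseudocount of 1 and are no fold changes, since the dsFactin values are 0. Among genes of nearly the same length, within 5 bases, the smallest value above 0 in a library was 0.16 to 0.30 FPKM, well under the dsNC values of these transcripts. Reads may have been divided among such similar transcripts in ways that no source describes, so the value of any single one is uncertain.

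Summed over transcripts, the groups overlapped, although such a sum can still shift with how reads were divided among transcripts of different length. The 4 transcripts found in both groups, a grouping made after their values were seen, summed to 69.7, 155 and 288 FPKM in dsFactin and 160, 292 and 162 FPKM in dsNC. The 3 transcripts listed at 0 in dsFactin summed to 39.3, 10.6 and 31.9 FPKM in dsNC, or 19.8, 3.51 and 16.4% of the whole family. All 7 together averaged 171 ± 110 FPKM in dsFactin and 232 ± 61.4 FPKM in dsNC (SD). The ratio of Cluster-8110.25774 to Cluster-8110.29079 was 2.07, 3.21 and 2.56 in dsFactin and 1.86, 2.28 and 2.19 in dsNC. It varied less between libraries than the level of either transcript and overlapped between groups.

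**Figure D2:**
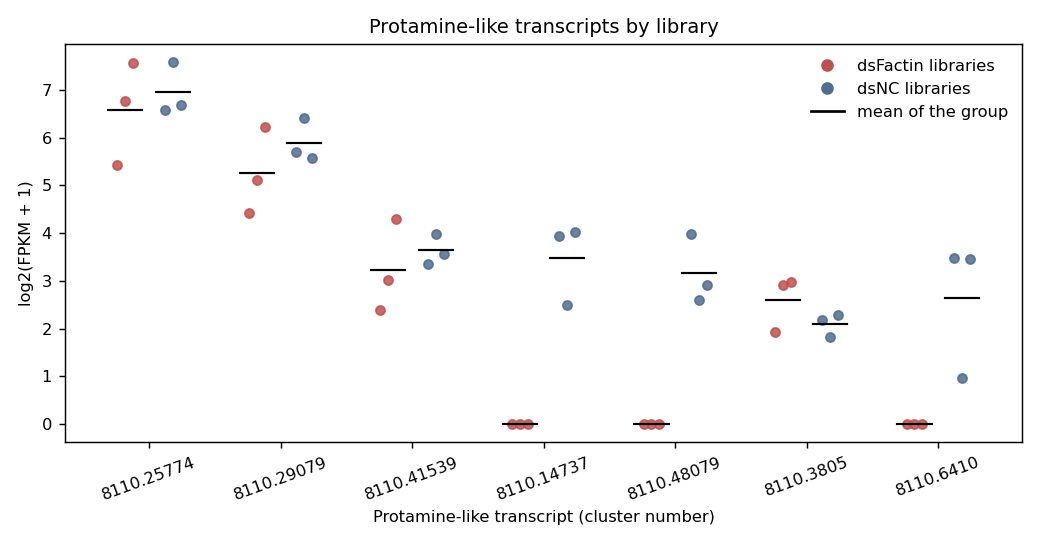
Level of the 7 protamine-like transcripts as log2(FPKM + 1) (y axis) by transcript (x axis, cluster number). Each point is 1 library, dsFactin left of dsNC for each transcript, and black bars are group means. Cluster-8110.14737, Cluster-8110.48079 and Cluster-8110.6410 lie at 0 in all 3 dsFactin libraries and between 0.950 and 15.3 FPKM in dsNC, while the groups overlap for the other 4.

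Rows with a Drosophila best hit, which the membership rule drops, were also found mainly in dsNC, and their part in the values above was not tested. Summed over 2137 such rows, the level was 226, 450 and 386 FPKM in dsFactin and 747, 2395 and 13923 FPKM in dsNC. The 15 that match the sperm and cilia words summed to 0.220, 0 and 0 FPKM in dsFactin and 10.8, 23.5 and 67.4 FPKM in dsNC. A Drosophila protamine row among them was listed at 0 FPKM in every dsFactin library and was at 0.180, 2.10 and 4.72 FPKM in dsNC. The best hits of 141 of the 142 members came from 9 spider genera, led by Stegodyphus with 54, and the best hit of the other, a TOGARAM1-like transcript, came from Stylophora, a coral. With the Drosophila rows left out of the fit, the same 3 members passed.

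Axonemal dynein chains, the motor subunits of the axoneme, made up the largest role group, with 37 members. None passed, 11 lay wholly below dsNC (29.7%; 21.5% of all tested genes) and 2 wholly above (5.41%; 5.98%), and the median difference was -0.39, against -0.27 over all tested genes. After median-ratio rescaling 9 lay below (24.3%; 12.9%) and 2 above (5.41%; 11.7%), with a median of -0.19, and with quantile normalization the median was -0.00437. Heavy chains, the ATP-splitting motors themselves, accounted for 28 members and were named for 9 different chains. Apart from 1 transcript they were rare, with means over all 6 libraries of 0.348 to 2.04 FPKM and lengths of 316 to 5555 bases. These 27 summed to 13.4, 15.8 and 13.4 FPKM in dsFactin and 28.1, 26.4 and 21.8 FPKM in dsNC, a sum in which the groups did not overlap. Of the 27, 24 were negative (71.6% of all tested genes were), 11 lay wholly below (21.5% of all tested genes) and 1 wholly above (5.98%), and the median difference was -0.40. Some of the 11 had met the 0.5 FPKM floor through the dsNC libraries only, so they could enter only with a low dsFactin group. These were Cluster-8110.8993, Cluster-8110.49577, Cluster-13112.0, Cluster-8110.15002, Cluster-10279.0, Cluster-8110.12034 and Cluster-8110.21208. The 1 above, Cluster-11851.0, had met it through dsFactin only. The counts and the sum are thus partly set by the filter.

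The exception was Cluster-8110.34192, whose best hit is a partial dynein heavy chain 7, an inner-arm motor. It was at 135, 96.6 and 350 FPKM in dsFactin, against 47.5, 48.0 and 42.1 FPKM in dsNC. Each dsFactin library stood above each dsNC library, dsFactin replicate 3 by the widest margin, and the difference of 1.83 ± 0.45 did not pass (adjusted p = 0.111, limma). Means were 194 ± 136 FPKM in dsFactin and 45.9 ± 3.28 FPKM in dsNC (SD). The Pfam families listed for this transcript do not include a dynein domain, and the other 5 transcripts with a Swissprot hit to dynein heavy chain 7 were among the 27 rare ones, so its name is uncertain. Left out, the dynein chains summed to 19.4, 25.7 and 25.5 FPKM in dsFactin and 40.2, 42.7 and 30.4 FPKM in dsNC. With it the sum was higher in dsFactin, at 154, 122 and 375 FPKM, against 87.7, 90.7 and 72.4 FPKM in dsNC, so that 1 doubtful transcript turned the direction of the group's sum; this comparison was chosen after its values were seen.

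Single heavy chains differed among themselves. All 3 transcripts named for dynein heavy chain 2 lay wholly below dsNC, the highest of them, Cluster-8110.25874, at 0.570, 0.520 and 0.290 FPKM in dsFactin and 1.21, 1.16 and 0.840 FPKM in dsNC (-0.50 ± 0.22, adjusted p = 0.280, limma). Of all tested genes, 21.5% lay wholly below. Cluster-8110.8993 and Cluster-13112.0 had met the floor through the dsNC libraries only, so as members they could only lie below. Of 4 named for dynein heavy chain 8, an outer-arm motor, Cluster-8110.49577 was listed at 0 FPKM in all dsFactin libraries, against 0.870, 0.820 and 2.11 FPKM in dsNC (-1.13 ± 0.28, adjusted p = 0.109, limma). Another, Cluster-8110.15650, was at 0.570, 1.16 and 0.730 FPKM in dsFactin and 1.14, 1.58 and 0.870 FPKM in dsNC. The groups overlapped for the longer Cluster-8110.15650 and not for the short Cluster-8110.49577. A fragment named for dynein heavy chain 9, Cluster-11851.0, went the other way, at 0.680, 0.600 and 0.610 FPKM in dsFactin and 0, 0.200 and 0 FPKM in dsNC (0.62 ± 0.20, adjusted p = 0.171, limma). At these levels a transcript of 1000 bases is read by few fragments, and most chains are present as several partial transcripts. Light and intermediate chains were rare too. The most abundant, an inner-arm light chain (Cluster-8110.34293), was at 0.580, 2.67 and 3.32 FPKM in dsFactin and 3.36, 3.96 and 1.58 FPKM in dsNC (-0.39 ± 0.46, adjusted p = 0.669, limma), with overlap.

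Dynein assembly factors, cytoplasmic proteins that build dynein arms before they enter the axoneme, were all negative (7 of 7, against 71.6% of all tested genes). Their median was -0.20. Rescaled by median ratios, 5 were negative (71.4%, against 57.5% of all tested genes). Normalized by quantiles 3 were (42.9%, against 48.9% of all tested genes), with a median of 0.15. Dynein axonemal assembly factor 3 (Cluster-8110.38098) was at 7.63, 10.1 and 9.05 FPKM in dsFactin, against 13.9, 16.1 and 15.0 FPKM in dsNC. The groups stood well apart, at 8.92 ± 1.23 FPKM in dsFactin and 15.0 ± 1.10 FPKM in dsNC (SD), yet the difference of -0.70 ± 0.15 did not pass (adjusted p = 0.0923, limma). It passed in 2 of 18 alternatives, at 0.0473 among genes averaging 5 FPKM or more and at 0.0454 with voom on recovered fragments (0.0454 to 0.324 over all 18). Assembly factor 4 (Cluster-8110.10966) was at 0.870, 1.21 and 0.470 FPKM in dsFactin and 1.34, 1.80 and 1.37 FPKM in dsNC (-0.45 ± 0.25, adjusted p = 0.381, limma), without overlap. Assembly factor 5 (Cluster-8110.14608) was at 1.64, 2.35 and 2.89 FPKM in dsFactin and 3.20, 3.68 and 2.64 FPKM in dsNC, with overlap.

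Radial spoke transcripts, from the stalks that link the doublets to the central pair of microtubules, were 5. None was separated between groups (21.5% of all tested genes lay wholly below dsNC and 5.98% wholly above). Their median difference was -0.03, but median-ratio rescaling gave 0.20 and quantile normalization 0.35. Radial spoke head protein 3 (Cluster-8110.26430), a stalk protein that anchors the spoke in the alga Chlamydomonas, was at 10.0, 10.1 and 10.6 FPKM in dsFactin and 13.8, 10.5 and 9.31 FPKM in dsNC (-0.10 ± 0.17, adjusted p = 0.766, limma; 0.20 after median-ratio rescaling). Spoke head protein 9 (Cluster-8110.50183) was at 1.51, 2.77 and 4.72 FPKM in dsFactin and 1.24, 5.05 and 1.5 FPKM in dsNC. A transcript named for spoke head protein 1 (Cluster-8110.25309) was at 2.53, 2.03 and 5.14 FPKM in dsFactin and 2.17, 2.80 and 0.880 FPKM in dsNC, and 1 named for spoke head protein 6A (Cluster-8110.24549) at 0.360, 1.01 and 1.28 FPKM in dsFactin and 1.57, 1.91 and 0.770 FPKM in dsNC. dsFactin replicate 3 was the highest dsFactin library for all 5, and dsNC replicate 2 the highest dsNC library for 4 of 5.

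Tektins, outer dense fiber proteins and enkurins, structural proteins of the doublets and the sperm tail, were negative in all 13 members (71.6% of all tested genes), with a median of -0.42, and 3 lay wholly below dsNC (23.1%; 21.5% of all tested genes). After median-ratio rescaling 10 of 13 were negative (76.9%, against 57.5% of all tested genes, median -0.16). With quantile normalization 9 were (69.2%, against 48.9% of all tested genes, median -0.17). The member that passed was an enkurin fragment of 371 bases, Cluster-13974.0, listed at 0 FPKM in all 3 dsFactin libraries, against 1.96, 2.70 and 2.17 FPKM in dsNC (-1.71 ± 0.21, adjusted p = 0.0416, limma; 0.0340 to 0.216 over 17 alternatives, past the threshold in 5). Genes within 5 bases of its length had smallest values above 0 of 0.580 to 0.820 FPKM in the dsFactin libraries, so it was read close to the limit of detection. A longer enkurin transcript, Cluster-8110.11977, was at 2.77, 6.08 and 12.3 FPKM in dsFactin and 6.48, 10.3 and 8.37 FPKM in dsNC (-0.38 ± 0.46, adjusted p = 0.670, limma). The third, Cluster-8110.16780, was at 1.63, 2.89 and 4.10 FPKM in dsFactin and 3.13, 3.42 and 2.32 FPKM in dsNC. Both longer enkurins overlapped between groups, so 1 of 3 transcripts of that name passed.

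Outer dense fiber protein 3-B (Cluster-8110.32114), named for a sperm tail protein of mammals, was at 16.4, 16.5 and 13.7 FPKM in dsFactin and 23.2, 25.1 and 19.7 FPKM in dsNC (-0.52 ± 0.15, adjusted p = 0.148, limma). It was the most abundant of the group and did not overlap between groups. Tektin 1 (Cluster-8110.20796) was at 2.47, 3.15 and 8.29 FPKM in dsFactin and 4.47, 6.37 and 4.71 FPKM in dsNC, with overlap. Tektin 5 (Cluster-8110.41713) was at 0.600, 1.52 and 1.2 FPKM in dsFactin and 2.37, 2.38 and 1.62 FPKM in dsNC, without overlap (-0.58 ± 0.26, adjusted p = 0.294, limma). The last pair was named here after its values were seen.

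**Figure D3:**
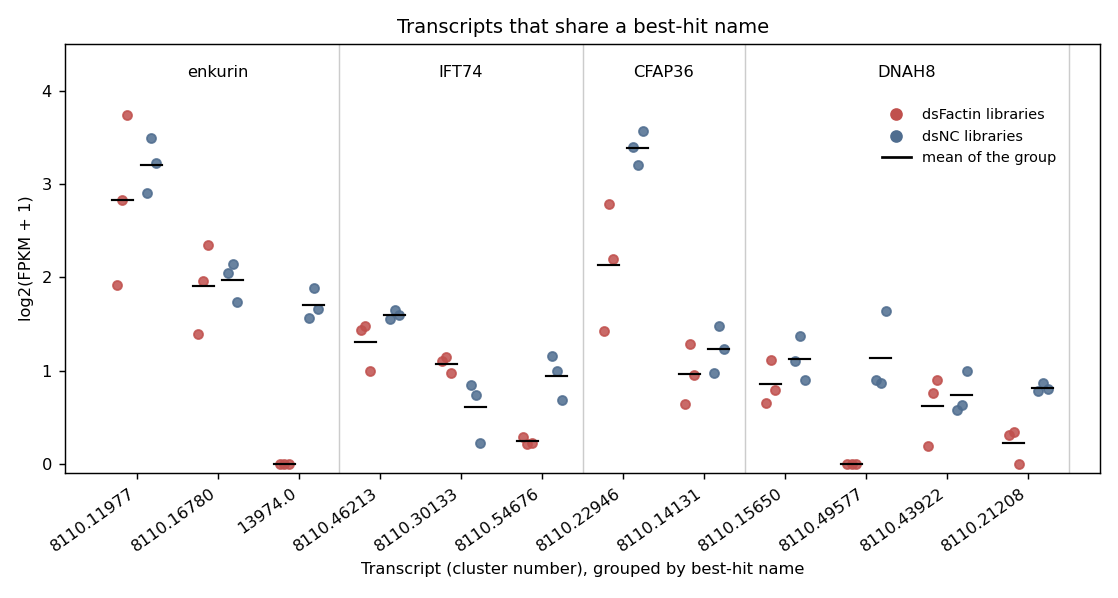
Level of transcripts that share a best-hit name as log2(FPKM + 1) (y axis), grouped by name (x axis, cluster number). Each point is 1 library, dsFactin left of dsNC for each transcript, and black bars are group means. Within a name, separated and overlapping transcripts stand side by side: enkurin Cluster-13974.0 is at 0 in dsFactin while the other enkurins overlap, and IFT74 has Cluster-8110.46213 and Cluster-8110.54676 wholly below dsNC and Cluster-8110.30133 wholly above.

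Cilia- and flagella-associated proteins, a broad class grouped here by name alone, numbered 34. Of them 31 were negative (91.2%, against 71.6% of all tested genes), with a median of -0.36, and 7 lay wholly below dsNC (20.6%, against 21.5%). After median-ratio rescaling 25 were negative (73.5%, against 57.5% of all tested genes, median -0.15). With quantile normalization 19 were (55.9%, against 48.9% of all tested genes, median -0.04). CFAP36 (Cluster-8110.22946) had the largest difference of the class, at 1.68, 5.90 and 3.57 FPKM in dsFactin and 9.51, 8.22 and 10.9 FPKM in dsNC (-1.25 ± 0.35, adjusted p = 0.139, limma). Its groups did not overlap, at 3.72 ± 2.11 FPKM in dsFactin and 9.53 ± 1.32 FPKM in dsNC (SD). The second transcript of that name, Cluster-8110.14131, was at 0.560, 1.44 and 0.940 FPKM in dsFactin and 0.970, 1.78 and 1.35 FPKM in dsNC and overlapped. CFAP58 (Cluster-8110.50045), which is needed for the sperm tail in mammals, was at 1.35, 1.59 and 2.44 FPKM in dsFactin and 3.29, 4.05 and 2.88 FPKM in dsNC (-0.67 ± 0.23, adjusted p = 0.200, limma). The most abundant of the class, CFAP20 (Cluster-8110.32687), a protein of the inner junction between the doublet tubules, was at 32.8, 26.3 and 47.1 FPKM in dsFactin and 30.5, 33.9 and 34.1 FPKM in dsNC (0.07 ± 0.22, adjusted p = 0.885, limma). CFAP91 (Cluster-8110.26263), a protein of the spoke base, was at 6.33, 7.43 and 13.3 FPKM in dsFactin and 10.6, 9.50 and 9.06 FPKM in dsNC (-0.16 ± 0.27, adjusted p = 0.769, limma). CFAP20 and CFAP91 overlapped between groups, and CFAP91 was 0.14 after median-ratio rescaling.

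Intraflagellar transport had 22 members, and all 22 genes that matched its word reached the floor. Of them 11 lay wholly below dsNC (50.0%; 21.5% of all tested genes) and 2 wholly above (9.09%; 5.98%), with a median of -0.27. After median-ratio rescaling 4 lay below (18.2%; 12.9%) and 4 above (18.2%; 11.7%), with a median of -0.06, and with quantile normalization the median was 0.01. IFT80 (Cluster-8110.38899), of the complex that rides outward, was at 20.5, 18.4 and 16.5 FPKM in dsFactin and 22.7, 22.7 and 20.8 FPKM in dsNC (-0.25 ± 0.13, adjusted p = 0.357, limma; 0.06 after median-ratio rescaling). IFT88 (Cluster-8110.42532), of the same complex, was at 5.21, 4.83 and 3.20 FPKM in dsFactin and 6.17, 6.78 and 5.87 FPKM in dsNC (-0.44 ± 0.20, adjusted p = 0.297, limma). IFT43 (Cluster-8110.25643), of the complex of the return trip, was at 0.610, 0.830 and 0.980 FPKM in dsFactin and 1.85, 2.5 and 1.61 FPKM in dsNC (-0.72 ± 0.23, adjusted p = 0.175, limma). None of the 3 overlapped between groups and none passed.

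IFT25 (Cluster-8110.36045), also of the outward complex, went the other way, at 16.1, 11.3 and 47.1 FPKM in dsFactin and 10.0, 10.3 and 10.5 FPKM in dsNC (0.94 ± 0.48, adjusted p = 0.347, limma), without overlap and with dsFactin replicate 3 far above the rest. The transcripts named for IFT74 split in direction: Cluster-8110.54676 was at 0.220, 0.160 and 0.170 FPKM in dsFactin and 1.22, 1.0 and 0.610 FPKM in dsNC (-0.70 ± 0.22, adjusted p = 0.168, limma). Cluster-8110.30133 was at 1.15, 1.21 and 0.960 FPKM in dsFactin and 0.80, 0.670 and 0.170 FPKM in dsNC (0.47, adjusted p = 0.372, limma), and Cluster-8110.46213 at 1.71, 1.79 and 0.990 FPKM in dsFactin and 1.94, 2.13 and 2.02 FPKM in dsNC. Neither the lower pair nor the higher transcript overlapped between groups. Cluster-8110.54676 had met the 0.5 FPKM floor through the dsNC libraries only. The most abundant member under an intraflagellar name, Cluster-8110.38912, had a Swissprot hit to IFT20 but an NR hit and a Pfam family of beta-glucuronidase, a sugar-cleaving enzyme of lysosomes, and was at 41.5, 37.0 and 34.03 FPKM in dsFactin and 35.6, 34.2 and 33.4 FPKM in dsNC. IFT25, IFT88 and the transcripts of IFT74 other than Cluster-8110.54676 are named after their values were seen.

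Testis-specific hits were 6, and 0 were separated between groups (21.5% of all tested genes lay wholly below dsNC and 5.98% wholly above). Their median was -0.09, and 0.24 after median-ratio rescaling. Alpha tubulins made up 4 of them, the tubulin subunit that every cell uses, and the pair with the highest level also hit the general alpha tubulin of Drosophila in Swissprot. Cluster-8110.35742 was at 374, 461 and 493 FPKM in dsFactin and 442, 441 and 439 FPKM in dsNC, and Cluster-8110.33626 at 340, 390 and 478 FPKM in dsFactin and 452, 414 and 417 FPKM in dsNC. The rarest, Cluster-8110.36607, was at 15.2, 31.2 and 68.8 FPKM in dsFactin and 34.1, 55.8 and 33.5 FPKM in dsNC, with dsFactin replicate 1 lowest and dsFactin replicate 3 highest of the dsFactin libraries, as for the protamine-like Cluster-8110.25774. TESK2 (Cluster-8110.36338), a kinase that acts on cofilin, was at 23.4, 25.5 and 30.9 FPKM in dsFactin and 24.2, 24.3 and 25.3 FPKM in dsNC (0.10 ± 0.14, adjusted p = 0.721, limma).

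Spermatogenesis- and sperm-associated hits were 11, with a median of -0.22, against 0.04 when rescaled by median ratios and 0.11 when normalized by quantiles. Several of these names belong to proteins of general cell use. VIPAS39 (Cluster-8110.42199), a protein of vesicle sorting, was at 7.73, 8.20 and 6.67 FPKM in dsFactin and 9.81, 10.0 and 8.59 FPKM in dsNC (-0.30 ± 0.15, adjusted p = 0.341, limma). SPATA13 (Cluster-8110.34220) was at 6.07, 5.36 and 4.59 FPKM in dsFactin and 8.25, 7.39 and 6.45 FPKM in dsNC (-0.40 ± 0.17, adjusted p = 0.274, limma). Neither overlapped between groups as deposited. In all, 3 of the 11 lay wholly below dsNC as deposited (27.3%, against 21.5% of all tested genes). After median-ratio rescaling 0 of the 11 did (12.9% of all tested genes). SPAG7 (Cluster-8110.33167) was at 7.05, 7.34 and 7.72 FPKM in dsFactin and 7.70, 7.52 and 8.10 FPKM in dsNC (-0.07 ± 0.14, adjusted p = 0.804, limma), turning to 0.22 after median-ratio rescaling.

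Library by library, many members shared their high and low libraries, a pattern read after the values were seen. dsFactin replicate 1 was the lowest dsFactin library for 71 members (50.0%; 21.0% of all tested genes), dsFactin replicate 3 the highest for 64 (45.1%; 25.8%), and dsNC replicate 2 the highest dsNC library for 89 (62.7%; 41.5%). Both high libraries applied to 45 members (31.7%; 11.6%). For intraflagellar transport, dsFactin replicate 3 was the lowest dsFactin library for 13 of 22, and the difference between role groups was not tested. The summed level of the protamine-like transcripts found in both groups differed 4.19-fold between the highest and lowest of the 6 libraries, and that of all 7 differed 4.345-fold. The same spread was 2.44-fold for tektins, outer dense fiber proteins and enkurins, 2.21-fold for dynein chains without Cluster-8110.34192 and 1.94-fold for cilia- and flagella-associated proteins. It was 1.19-fold for intraflagellar transport, at 115 to 137 FPKM, and 1.27-fold for spermatogenesis- and sperm-associated hits, at 31.3 to 39.7 FPKM. The intraflagellar sum kept Cluster-8110.38912, whose NR hit is beta-glucuronidase, at 33.4 to 41.5 FPKM. It also kept IFT25, at 47.1 FPKM in dsFactin replicate 3 and 10.0 to 16.1 FPKM elsewhere. Its narrow spread may therefore not hold for the other transcripts of that group. The median of the intraflagellar members was 1.81, 1.985 and 1.695 FPKM in dsFactin and 2.72, 2.765 and 2.365 FPKM in dsNC, without overlap. Over all tested genes the median was 1.19, 1.51 and 1.02 FPKM in dsFactin and 1.8, 1.97 and 1.65 FPKM in dsNC, also without overlap.

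**Figure D4:**
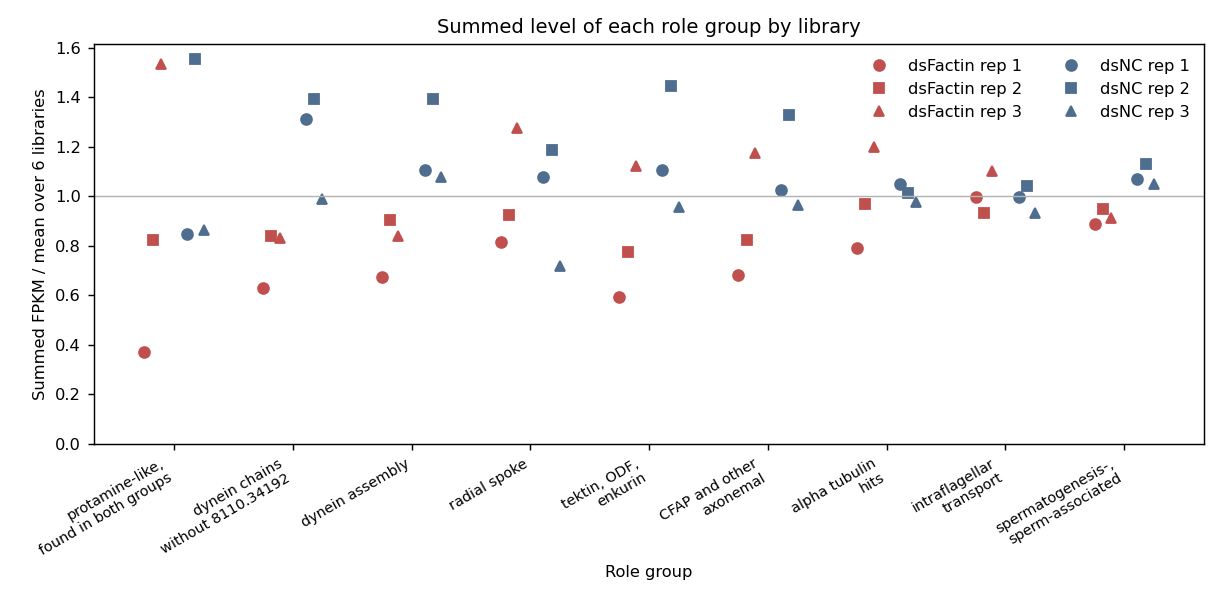
Summed FPKM of each role group divided by its mean over 6 libraries (y axis, starting at 0), by role group (x axis; nuclear sperm proteins as the 4 found in both groups, dynein chains without Cluster-8110.34192, testis-specific hits as the alpha tubulins), with dsFactin left of dsNC and 1 marker shape per replicate number. The 4 protamine-like transcripts spread 4.19-fold, with dsFactin replicate 1 lowest and dsNC replicate 2 and dsFactin replicate 3 highest, while intraflagellar transport spread 1.19-fold, with Cluster-8110.38912 and IFT25 kept in.

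**Figure D5:**
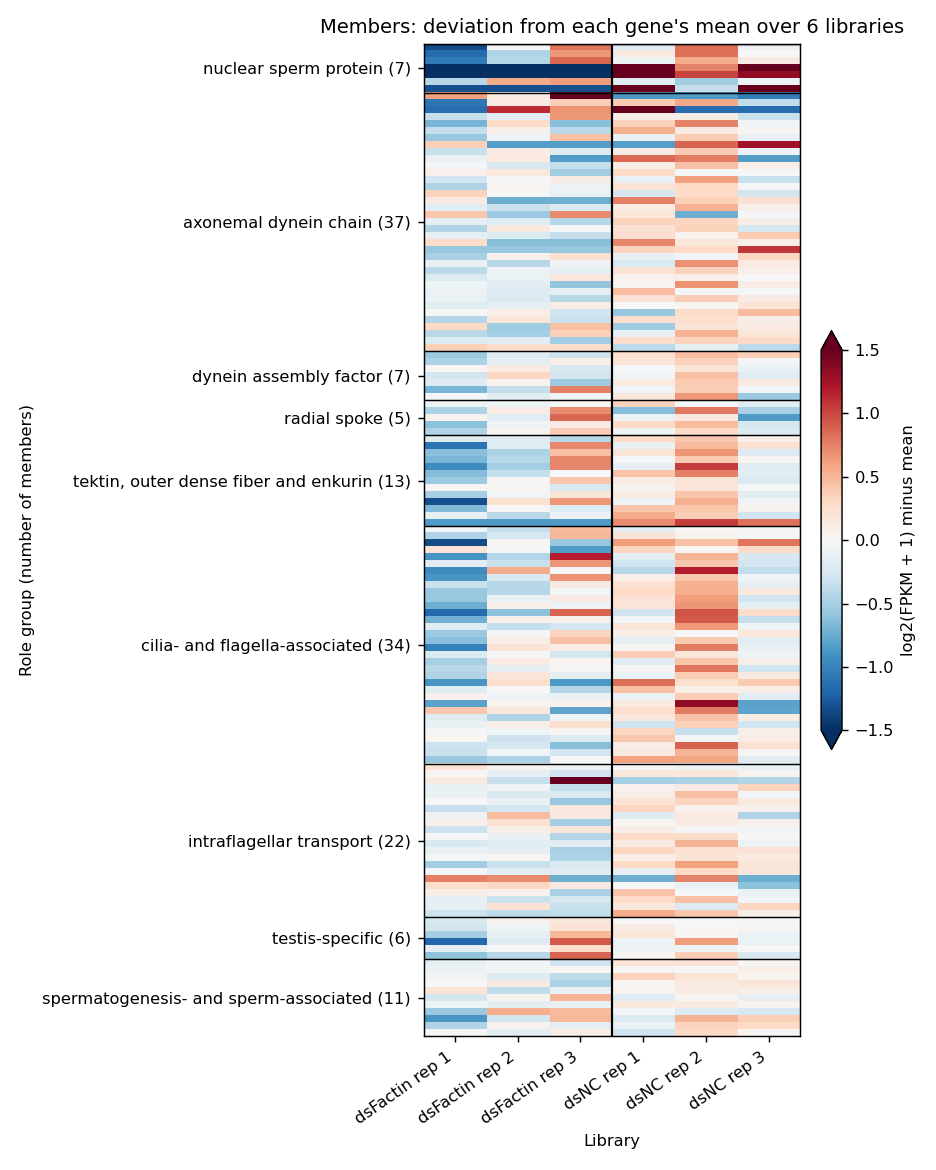
Deviation of each of the 142 members from its own mean over 6 libraries, as log2(FPKM + 1) with the colour scale capped at 1.5 in either direction (rows, members by role group; columns, libraries, dsFactin left of dsNC). Blue is below and red above the mean. The dsFactin replicate 1 column is the lowest of its group for 71 members and the dsFactin replicate 3 column the highest for 64, dsNC replicate 2 is the highest dsNC column for 89, and the rows of 3 protamine-like transcripts are dark blue in dsFactin.

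Of 26 names carried by more than 1 member (80 members), 16 had some but not all of their transcripts wholly below dsNC, 1 had all of them below and 9 had none. This tally too was made after the values were seen; with 28.2% of the members wholly below it says nothing particular about the names, and differences between transcripts of 1 name were not tested. Low levels set a limit here, since only 28 of the 142 members averaged 5 FPKM or more and 77 reached the floor in all 6 libraries.

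Other genes matched by cilia and centriole words, outside the member words, had a negative median as well. A separate list (Bardet-Biedl proteins, dynein regulatory complex, tubulin polyglutamylases, kinesin-II, centriole proteins and the like) matched 59 genes. Of these, 55 were tested and 0 passed in limma, against 0.496% of all tested genes. At an unadjusted p under 0.05 in limma, 1 was higher (4.53% of all tested genes) and 4 were lower (14.8% of all tested genes). With voom on recovered fragments 0 passed as well. The dsFactin values were below every dsNC value for 14 (25.5%; 21.5% of all tested genes) and above every dsNC value for 1 (1.82%; 5.98%), which became 5 below (9.09%; 12.9%) and 5 above (9.09%; 11.7%) after median-ratio rescaling, and the median difference was -0.21, against -0.30 for the members and -0.27 for all tested genes. Words alone set the list, so it also held proteins named only as partners of ADP-ribosylation factor-like protein 6. Cluster-8110.35810 matched through a Swissprot sperm flagellar name, but its NR hit was the cell adhesion receptor mua-3. It and such a partner, Cluster-8110.33658, were among the 14. Sperm flagellar protein 1 (Cluster-8110.6215), a microtubule binder of the central pair, was at 0.390, 0.870 and 1.01 FPKM in dsFactin and 2.09, 3.0 and 1.72 FPKM in dsNC (-0.90 ± 0.27, adjusted p = 0.156, limma). A second hit to it, Cluster-8110.6066, was at 0.470, 1.48 and 3.35 FPKM in dsFactin and 3.04, 2.05 and 1.86 FPKM in dsNC, with overlap. BBS2 (Cluster-8110.23221), a subunit of the complex that sorts cargo into cilia, was at 1.51, 1.66 and 0.970 FPKM in dsFactin and 2.39, 2.92 and 2.62 FPKM in dsNC (-0.62 ± 0.22, adjusted p = 0.199, limma). A TTLL4-like enzyme (Cluster-8110.26474), which adds glutamate to tubulin, was at 14.0, 12.99 and 20.2 FPKM in dsFactin and 11.1, 10.4 and 10.1 FPKM in dsNC (0.51 ± 0.19, adjusted p = 0.218, limma). It was the 1 gene of this list that lay wholly above dsNC. Another TTLL4 hit, Cluster-8110.30659, lay wholly below, at 2.28, 1.9 and 1.29 FPKM in dsFactin and 2.76, 3.42 and 3.0 FPKM in dsNC (-0.54 ± 0.22, adjusted p = 0.254, limma).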

How the data were processed

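RNA of 6 libraries (3 dsFactin, 3 dsNC) was sequenced. Per the labels' protocols, an RNeasy kit was used for extraction and a SMARTER mRNA kit for library preparation. The authors deposited 1 table of FPKM values per assembled gene, with gene length and best protein hits; for assembler, aligner and counter, nothing is stated (not given in the sources used here). A mouse genome build appears in the submitters' processing notes, but the genes are numbered clusters without coordinates, so no positions are given. Names are those of best hits. The Pfam column lists families unrelated to the best-hit name for several members, such as CFAP20 and CFAP91.

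Counts were not given. Depth was recovered from the step size of low FPKM values per base of effective length (gene length less a constant): 99.3 to 99.7% of low values were whole fragments to within 0.1. The length range used for this was chosen after earlier attempts gave fewer whole values, and it bears only on depth and on the voom alternative. Floors and depths cover counting error only.

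The 53182 genes that reached 0.5 FPKM in 3 or more libraries were analysed as log2(FPKM + 1), which understates changes of low genes, with limma 3.58.1 in R 4.3.3 (intensity trend, two-sided, Benjamini-Hochberg over all tested genes, threshold 0.05). The fit was also run on simulated data, in which only genes averaging 5 FPKM or more were changed. That run does not show how the fit finds changes in rarer genes, which most members are. The members and lists were chosen with earlier results of these data known. Named genes were every nuclear sperm protein, every member that passed and, in each role group, the pair with the highest mean and the pair with the lowest unadjusted p; all other members given with values, and the genes of the separate ciliary list, were chosen after their values were seen. Alternatives were pseudocounts of 0.1 and 0.01, 3 other filters, median-ratio and quantile scaling, no trend, array weights, the replicate number as a block, voom on recovered fragments, the fit without Drosophila rows, and leaving out each library. Counts of separated members and separate ciliary genes after median-ratio rescaling were added after seeing the data.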

Additional observations from a re-analysis of the deposited data

How the results depend on the processing

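The number of members that passed was 0 with no filter on low values, 0 after median-ratio rescaling, 1 with quantile normalization and 0 with the replicate number as a block, against 3; the other 8 alternatives that keep all libraries gave 2 or 3. Leaving out 1 library gave 0 to 3. Over all tested genes, 264 passed, against 1.1e2 with a pseudocount of 0.01 (97 lower and 17 higher), 117 with no filter, 781 with a mean of at least 5 FPKM, 115 after median-ratio rescaling, 174 with no trend, 702 with array weights, 1143 with voom on recovered fragments and 17 with the replicate block, and 33 (without dsNC replicate 2) to 1297 (without dsFactin replicate 2) with 1 library left out. The separate ciliary list gave 0 to 1 with 1 library left out and 0 elsewhere. The cause of these shifts was not tested.

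No label says that replicate numbers pair the libraries. Deviations of same-numbered libraries from their group means correlated at 0.10, -0.11 and -0.15 over all tested genes. Not every library correlated best with its own number. With 3 libraries in each group this check cannot exclude pairing. The 3 members that passed had 52 values under the 18 alternatives, of which 23 passed and 29 did not. The other named genes passed 3 times, and 0 values that passed turned sign. The sign of 13 named genes turned in at least 1 alternative, none of them having passed in that setting. Depth limits most members: 28 of 142 averaged 5 FPKM or more, and below that 1 fragment more or less moves the value.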
